A study of Homo sapiens with 6 samples.

Results

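The genes described here make cholesterol from acetyl-CoA, sense it and move it. They are 28 human genes listed by function, but the list was drawn up with earlier results of these data known. All 28 were found by symbol among the 65988 gene identifiers of the count files and were among the 16105 genes tested. They were measured in U87MG, an established human glioblastoma cell line, wild type by its labels, in 3 libraries of cells given vehicle (control) and 3 of cells given 2 µM RSL3 for 24 h. RSL3 is a small molecule that inactivates GPX4, the selenoprotein that reduces lipid hydroperoxides, and so sets off ferroptosis. The labels do not say whether replicates were separate cultures, so the p-values measure the spread between these libraries only. Library totals lay between 27813462 and 43306335 counts. Of the glioma and mesenchymal markers, VIM and CD44 were abundant and SOX2 and S100B were near 0, with mean normalized counts of at most 1.11 in either group. The summed level of that 7-gene list was 2713 to 2769 CPM (counts scaled to 1000000 per library) in the control libraries and 2157 to 2269 in the RSL3-treated libraries, and its part in the results was not tested. Within that list VIM and CD44 fell (log2 fold changes -0.29 and -0.39), while GFAP, NES and OLIG2 were at 0.40, 0.25 and 0.13 and were not called, GFAP and OLIG2 without overlap between the groups. Summed markers of immune cells (3 genes, AIF1 at 0 throughout) were at most 0.469 CPM in every library. Those of endothelial cells (3 genes) were at 1.96 to 2.87 in control and 0.850 to 1.49 in RSL3-treated libraries, those of epithelial cells (3 genes) at 2.37 to 3.49 and 2.65 to 3.16, and those of neurons (3 genes) at 30.2 to 32.6 and 33.0 to 33.7. The neuron sum held opposite calls, with SNAP25 lower (-1.04) and SYT1 higher (0.24), and the endothelial sum held a fall of VWF (-1.33).

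Cholesterol synthesis starts in the mevalonate steps, which build the isoprenoid unit isopentenyl diphosphate. These units are joined to farnesyl diphosphate and squalene, squalene is oxidized and folded to lanosterol, and a series of post-lanosterol enzymes trims lanosterol to cholesterol. The genes are switched together by the transcription factors SREBP-1 and SREBP-2, which the escort protein SCAP carries out of the endoplasmic reticulum when sterols are scarce and which INSIG proteins hold back when sterols are plentiful. Isopentenyl diphosphate also feeds the tail of coenzyme Q and a modified base of the selenocysteine tRNA, and 7-dehydrocholesterol, the last sterol before cholesterol on one route, reacts readily with lipid radicals, which ties the pathway to ferroptosis.

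RefSeq promoter windows (GRCh38.p14), which run from 250 bases before to 50 bases after a listed start, were found for 25 of the 28 genes, 33 windows in all; ACAT2, FDFT1 and SQLE had none. Windows of SREBF2, FDPS, MSMO1, HMGCS1 and SREBF1, 5 genes that fell in RSL3-treated cells, and of INSIG2, which rose, are printed 5′ to 3′ on the strand of the gene to show windows with and without the motifs. HMGCS1 and INSIG2 have 2 windows each and 1 is shown. The HMGCS1 window not shown holds no CCAAT box, unlike the one printed. Capital runs of 9 letters mark TCACNCCAC, the core of the sterol regulatory element that SREBPs bind, or its looser form TCACNCNAC, and capital runs of 5 mark CCAAT or its reverse complement ATTGG, the box that NF-Y, a partner of SREBPs, binds.
SREBF2, chr22:41832855-41833154, plus strand: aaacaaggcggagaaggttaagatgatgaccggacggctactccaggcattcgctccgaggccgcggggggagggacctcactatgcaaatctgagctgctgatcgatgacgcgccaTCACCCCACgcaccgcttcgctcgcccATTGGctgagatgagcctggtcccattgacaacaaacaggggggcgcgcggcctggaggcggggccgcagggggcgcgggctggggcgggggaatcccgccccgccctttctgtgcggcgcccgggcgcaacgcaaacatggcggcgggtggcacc
FDPS, chr1:155308616-155308915, plus strand: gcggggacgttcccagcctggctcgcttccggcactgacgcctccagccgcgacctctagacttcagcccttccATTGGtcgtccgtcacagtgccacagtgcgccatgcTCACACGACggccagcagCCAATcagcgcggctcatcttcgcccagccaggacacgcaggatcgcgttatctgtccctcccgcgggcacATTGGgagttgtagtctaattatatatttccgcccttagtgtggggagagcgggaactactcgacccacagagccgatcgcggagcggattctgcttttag
MSMO1, chr4:165327419-165327718, plus strand: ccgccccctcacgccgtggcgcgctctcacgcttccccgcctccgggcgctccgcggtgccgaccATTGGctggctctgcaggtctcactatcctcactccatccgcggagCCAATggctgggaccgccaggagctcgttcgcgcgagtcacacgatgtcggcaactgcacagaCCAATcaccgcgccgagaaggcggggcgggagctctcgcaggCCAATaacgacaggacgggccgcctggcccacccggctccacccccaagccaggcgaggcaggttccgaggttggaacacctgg
HMGCS1, chr5:43313363-43313662, minus strand: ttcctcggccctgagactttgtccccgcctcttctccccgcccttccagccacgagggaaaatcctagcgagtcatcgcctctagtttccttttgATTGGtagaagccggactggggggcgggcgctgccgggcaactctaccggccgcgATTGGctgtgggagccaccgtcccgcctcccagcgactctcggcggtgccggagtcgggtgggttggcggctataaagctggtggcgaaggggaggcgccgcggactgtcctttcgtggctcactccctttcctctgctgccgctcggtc
SREBF1, chr17:17836937-17837236, minus strand: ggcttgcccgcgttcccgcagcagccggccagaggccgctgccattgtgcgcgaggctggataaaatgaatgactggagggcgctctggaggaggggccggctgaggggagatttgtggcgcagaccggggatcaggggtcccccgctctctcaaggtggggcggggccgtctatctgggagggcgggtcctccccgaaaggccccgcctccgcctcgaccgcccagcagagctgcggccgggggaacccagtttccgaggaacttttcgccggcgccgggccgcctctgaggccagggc
INSIG2, chr2:118088221-118088520, plus strand: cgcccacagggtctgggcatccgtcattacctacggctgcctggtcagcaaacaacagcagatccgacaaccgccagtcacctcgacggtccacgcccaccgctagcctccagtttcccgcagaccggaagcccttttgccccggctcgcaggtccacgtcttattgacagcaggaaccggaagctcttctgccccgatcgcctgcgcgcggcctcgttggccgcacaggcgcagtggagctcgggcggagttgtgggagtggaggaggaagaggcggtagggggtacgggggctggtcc

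Both strands of every window were searched. TCACNCCAC stood only in the SREBF2 window, at -133 from the start, which is 1 of 33 windows (3.03%) against 1.13% of all 35116 RefSeq windows. The looser form, searched after that result had been seen, was in 3 windows (9.09%) against 2.55% of all: SREBF2, FDPS at -140 and HSD17B7 at -98. A CCAAT box was in 21 of the 33 windows (63.6%), 34.6% of all windows and 34.5% of the 16243 windows of tested genes. Counted by gene, with a match in any window, 19 of 25 (76.0%) held one, against 42.8% of the 11114 tested genes with a window. The box was not limited to the genes that fell. It was in 14 of the 16 that fell, all but PMVK and SREBF1, in 2 of the 3 that rose (GGPS1 and SOAT1, not INSIG2) and in 3 of the 6 that were not called. Over all tested genes with a window these shares were 45.4% of those lower, 42.5% of those higher and 42.3% of those not called. MVK and NSDHL held 5 matches each in their single windows, and IDI1 held 5 over its windows. The GC box GGGCGG was in 87.9% of the windows, against 45.0% of all windows and 64.3% of those of tested genes, and the E-box CACGTG in 15.2%, against 7.26% and 9.10%. Apart from the looser element, which contains the stricter one, no match of one motif overlapped a match of another in these windows. Such matches describe letters and are not evidence of binding.

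Of the 20 enzymes listed, 14 were lower in RSL3-treated cells, 1 was higher and 5 were not called. The 1 that was higher, GGPS1, does not make sterols but draws farnesyl diphosphate off to a side branch. Each gene was tested between the groups with the quasi-likelihood test of edgeR, with p adjusted over all 16105 genes, and was called at an adjusted p under 0.05. Normalized counts were brought to a common library size, the mean over the libraries. Log2 fold changes are RSL3 over control, with the standard error (SE) where given. Of the 28 genes, 22 were called, against 25.6% of all genes tested. Of these, 19 were lower (12.7% of all genes) and 3 were higher (12.9% of all genes). The median log2 fold change of the 28 was -0.23, and that of all genes tested was -0.0044. In 23 of the 28 the groups did not overlap, against 38.6% of all genes. The changes were modest, from a log2 fold change of -0.63 in HMGCS1 to 0.29 in INSIG2. Each library pools the RNA of many cells, so fewer cells expressing a gene and less of its RNA per cell cannot be told apart. Counts are shares of a library, so a change in the total RNA of the cells would not be seen.

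**Figure D1:**
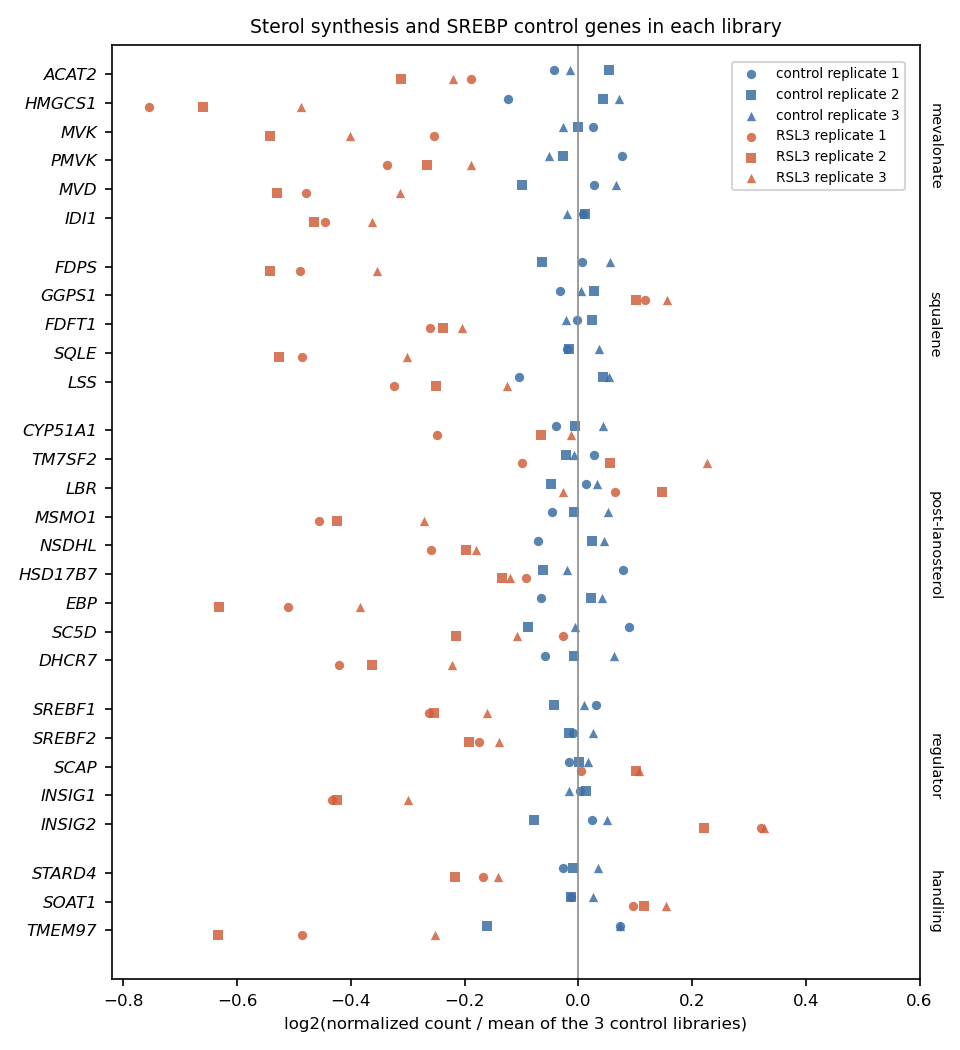
Each point is the normalized count of a gene in 1 library, as the log2 ratio to the mean of the 3 control libraries (x axis), for the 28 genes by pathway step (y axis). Blue marks control and orange RSL3-treated libraries, the marker shape gives the replicate number, and RSL3 replicate 3 is the RSL3-treated library nearest to the control mean in 17 of the 22 called genes.

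All 6 mevalonate genes fell. HMGCS1 (ENSG00000112972, chromosome 5 of GRCh38, 43287470 to 43313512), which makes HMG-CoA, changed most. Its normalized counts were 5127, 5757 and 5867 in control replicates 1 to 3 and 3310, 3535 and 3982 in RSL3 replicates 1 to 3. Every RSL3-treated library was below the lowest control library, and the mean fell by 35.2% on the fitted scale (log2 fold change -0.63, SE 0.05, edgeR adjusted p = 1.87e-08). Only 6.72% of all genes tested had a larger absolute log2 fold change.

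IDI1, which interconverts the isoprenoid building blocks, had 4704, 4715 and 4613 normalized counts in control and 3434, 3388 and 3639 in RSL3-treated libraries. These groups were far apart relative to their spread (log2 fold change -0.42, SE 0.04, edgeR adjusted p = 1.19e-08). MVD, the decarboxylase that yields isopentenyl diphosphate, went from 4014 ± 236 (SD, n = 3) to 2964 ± 236 (SD, n = 3), a log2 fold change of -0.44. MVK, mevalonate kinase, had 1258, 1235 and 1213 normalized counts in control and 1036, 849 and 936 in RSL3-treated libraries (log2 fold change -0.40, edgeR adjusted p = 5.01e-05). The next kinase, PMVK, showed a smaller fall, from 1054 ± 50.2 (SD, n = 3) to 879 ± 45.0 (SD, n = 3), a log2 fold change of -0.26. ACAT2, which supplies acetoacetyl-CoA in the cytosol, had 555, 593 and 566 normalized counts in control and 501, 460 and 490 in RSL3-treated libraries. Its groups did not overlap, but its call was the weakest of the fallen genes (log2 fold change -0.24, SE 0.08, edgeR adjusted p = 0.0239). Without RSL3 replicate 2 the adjusted p was 0.114 and without control replicate 2 it was 0.0802, and the log2 fold change -0.20 and -0.21 in turn.

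Of the 5 genes of the squalene step, 4 fell and 1, the side branch gene GGPS1, rose. FDPS, farnesyl diphosphate synthase, had 3975, 3785 and 4113 normalized counts in control and 2821, 2720 and 3096 in RSL3-treated libraries. The groups did not overlap (log2 fold change -0.46, SE 0.04, edgeR adjusted p = 8.85e-08). SQLE, squalene epoxidase, went from 7259, 7281 and 7546 to 5260, 5114 and 5976 normalized counts, a log2 fold change of -0.43 (SE 0.04, edgeR adjusted p = 1.73e-07). The enzymes on either side of it fell less. FDFT1, squalene synthase, had a log2 fold change of -0.23 (9807 ± 155 to 8340 ± 163 normalized counts, SD, n = 3). LSS, lanosterol synthase, also had -0.23 (2778 ± 167 to 2367 ± 165 normalized counts, SD, n = 3).

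GGPS1 draws farnesyl diphosphate off to geranylgeranyl diphosphate, the lipid used for protein prenylation, and went the other way. Its normalized counts were 2022, 2108 and 2076 in control and 2244, 2219 and 2304 in RSL3-treated libraries, without overlap (log2 fold change 0.13, SE 0.04, edgeR adjusted p = 0.0202). The adjusted p was 0.0656 without RSL3 replicate 3 and 0.0797 without control replicate 1. The ratio of raw counts of FDFT1 to GGPS1, the enzymes on the squalene and the geranylgeranyl side of this branch, does not depend on library scaling. It was 4.85, 4.73 and 4.65 in control and 3.65, 3.75 and 3.69 in RSL3-treated libraries. All 3 RSL3-treated values were below the control values (exact permutation test, two-sided, p = 0.10, the smallest that 3 against 3 allows). The pair was chosen after its values were seen. Since FDFT1 was lower and GGPS1 higher in every RSL3-treated library, the separation was fixed in advance and the test adds no support.

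Past lanosterol the genes split. Of the 9 genes, 4 fell and 5 were not called, and none was called higher. MSMO1, the C4 methyl sterol oxidase, was the most abundant enzyme of the list per length, with 3966 ± 136 normalized counts per kilobase of exon in control cells (SD, n = 3). Its normalized counts were 10956, 11255 and 11724 in control and 8250, 8429 and 9376 in RSL3-treated libraries (log2 fold change -0.38, SE 0.04, edgeR adjusted p = 3.22e-07). EBP, the sterol isomerase, fell most in this group, from 1091, 1159 and 1174 to 802, 737 and 875 normalized counts. Its log2 fold change was -0.50 (SE 0.06, edgeR adjusted p = 3.65e-06). NSDHL, which acts beside MSMO1 in removing the C4 methyl groups, changed from 1966 ± 82.9 (SD, n = 3) to 1698 ± 48.6 (SD, n = 3), a log2 fold change of -0.21.

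DHCR7 reduces 7-dehydrocholesterol to cholesterol, and SC5D makes 7-dehydrocholesterol. DHCR7 had 8203, 8506 and 8929 normalized counts in control and 6388, 6642 and 7325 in RSL3-treated libraries, all of the latter lower (log2 fold change -0.33, SE 0.04, edgeR adjusted p = 4.10e-06). SC5D had 1171, 1035 and 1097 in control and 1081, 948 and 1022 in RSL3-treated libraries. The groups overlapped, and the log2 fold change was -0.12 (95% interval -0.25 to 0.01, edgeR adjusted p = 0.161). The ratio of DHCR7 to SC5D raw counts, also chosen after its values were seen, was 7, 8.22 and 8.14 in control and 5.91, 7 and 7.17 in RSL3-treated libraries. These ratios overlapped (exact permutation test, two-sided, p = 0.20).

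The remaining post-lanosterol genes did not pass the test. CYP51A1, the lanosterol demethylase and the first enzyme of this stretch, had 884, 904 and 936 normalized counts in control and 765, 867 and 900 in RSL3-treated libraries. Replicate 3 of RSL3 lay within the control range, and the log2 fold change was -0.10 (95% interval -0.24 to 0.03, edgeR adjusted p = 0.272). In HSD17B7, the 3-keto sterol reductase, the groups did not overlap, at 455 to 502 normalized counts in control and 433 to 446 in RSL3-treated libraries, but the edgeR adjusted p was 0.309. TM7SF2 and LBR, which both reduce the C14 double bond, had log2 fold changes of 0.07 (95% interval -0.12 to 0.26) and 0.06 (95% interval -0.07 to 0.19), and their libraries overlapped. All 5 uncalled enzymes had a mean of at most 1101 normalized counts in control cells. EBP, PMVK and ACAT2, at 1141, 1054 and 571, had counts of a similar size and were called. Their log2 fold changes were larger in size (-0.50, -0.26 and -0.24), and the part of count level in the calls was not tested.

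**Figure D2:**
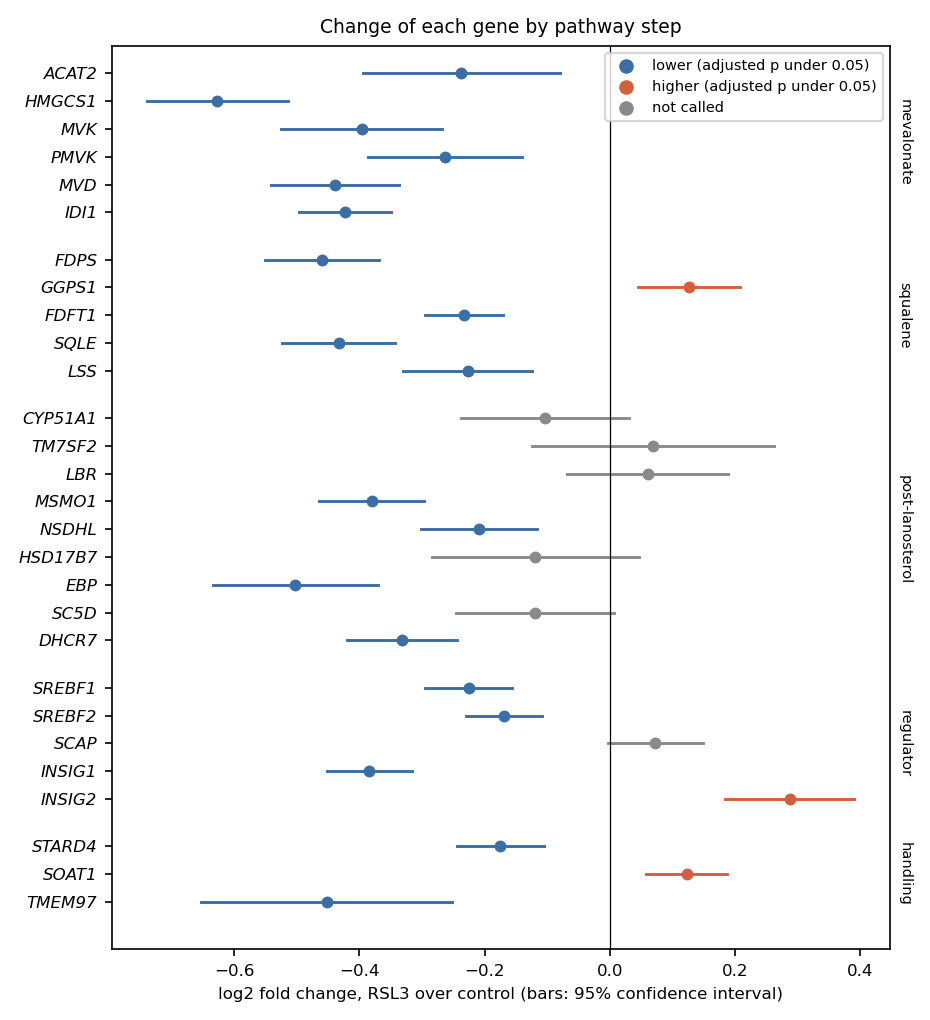
The x axis gives the log2 fold change of each gene, RSL3 over control, with its 95% confidence interval from edgeR, and the y axis the 28 genes by pathway step. Blue genes were called lower, orange genes higher and grey genes were not called. The 6 mevalonate genes lie between -0.63 and -0.24, while 5 of the 9 post-lanosterol genes have intervals that include 0.

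Both SREBP genes fell slightly and the INSIG genes moved apart. SREBF2, which encodes SREBP-2, the main activator of sterol synthesis (ENSG00000198911, chromosome 22 of GRCh38, 41833105 to 41907306), had 12247, 12179 and 12549 normalized counts in control and 10916, 10793 and 11193 in RSL3-treated libraries. The groups did not overlap (log2 fold change -0.17, SE 0.03, edgeR adjusted p = 0.000165). SREBF1, which encodes SREBP-1, the activator of fatty acid synthesis, went from 10041, 9534 and 9896 to 8188, 8237 and 8786, a log2 fold change of -0.23 (edgeR adjusted p = 2.81e-05). Counts per gene do not separate the SREBP-1a and SREBP-1c transcripts. SCAP had 3320, 3360 and 3398 normalized counts in control and 3370, 3606 and 3615 in RSL3-treated libraries, which overlapped (log2 fold change 0.07, edgeR adjusted p = 0.159).

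INSIG1, itself a target of SREBPs, was the most abundant gene of the list, at 6884 ± 70.4 normalized counts per kilobase of exon in control cells (SD, n = 3). It had 25174, 25357 and 24849 normalized counts in control and 18620, 18718 and 20412 in RSL3-treated libraries. The coefficient of variation among control libraries was 1.02%, and no RSL3-treated library reached their range (log2 fold change -0.38, SE 0.03, edgeR adjusted p = 1.56e-08). INSIG2, the paralog known for being less tied to SREBPs, rose from 1300, 1212 and 1324 to 1597, 1491 and 1604 normalized counts. All RSL3-treated libraries were above the control libraries (log2 fold change 0.29, SE 0.05, edgeR adjusted p = 0.000158). The ratio of raw counts of INSIG1 to INSIG2, a pair chosen after its values were seen, was 19.4, 20.9 and 18.8 in control. It was 11.7, 12.6 and 12.7 in RSL3-treated libraries, again without overlap (exact permutation test, two-sided, p = 0.10). This separation too was fixed by the values of the single genes, so the test adds no support.

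Among the genes that carry, store or bind sterols, STARD4 and TMEM97 fell and SOAT1 rose. STARD4, a cytosolic sterol carrier, had 5225, 5291 and 5455 normalized counts in control and 4741, 4581 and 4826 in RSL3-treated libraries (log2 fold change -0.17, edgeR adjusted p = 0.000456). TMEM97, the sigma-2 receptor, went from 573, 487 and 573 to 389, 351 and 457, the most variable gene of the list, with a coefficient of variation of 13.5% in RSL3-treated cells. It fell all the same (log2 fold change -0.45, SE 0.10, edgeR adjusted p = 0.00126). SOAT1, which esterifies cholesterol for storage, had 5898, 5895 and 6053 in control and 6359, 6448 and 6619 in RSL3-treated libraries, without overlap. The rise was small (log2 fold change 0.12, SE 0.03, edgeR adjusted p = 0.00565).

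**Figure D3:**
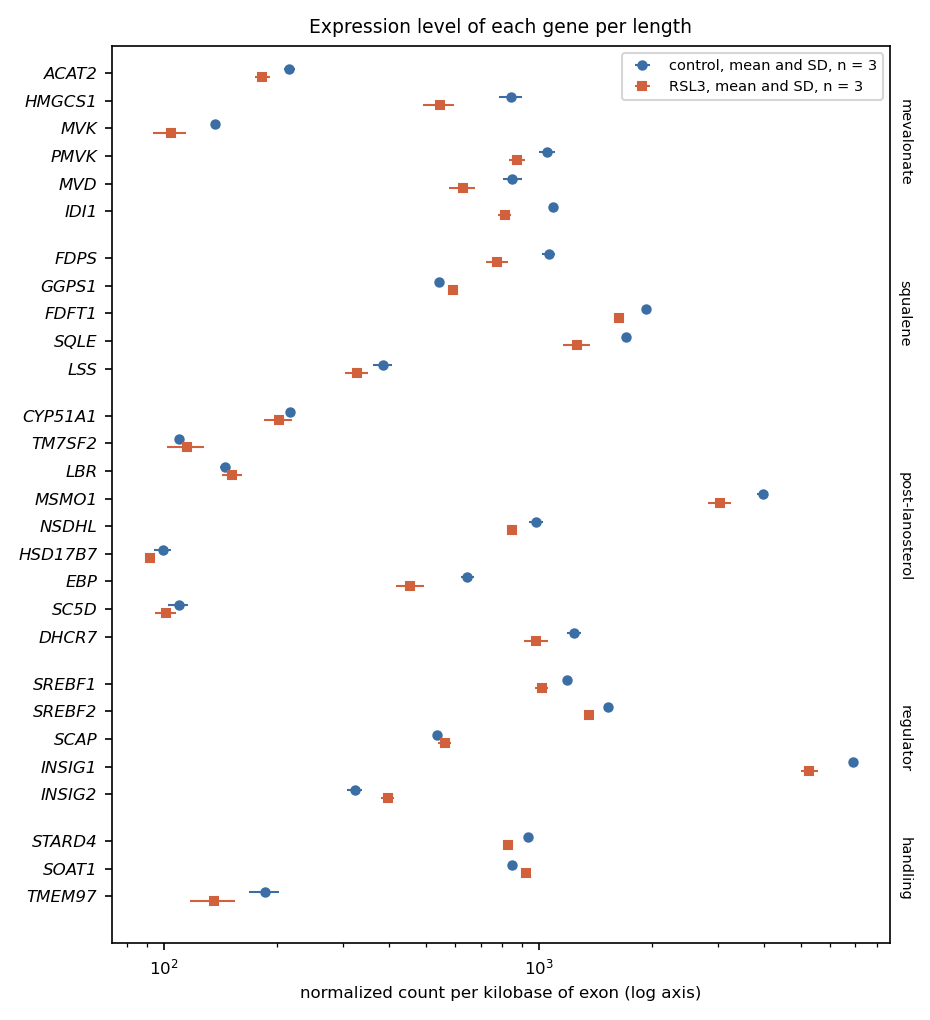
Mean normalized count per kilobase of exon with its SD (n = 3 libraries each) on a log axis, for each gene by pathway step, in control (blue circles) and RSL3-treated cells (orange squares). INSIG1 and MSMO1 are the highest, at 6884 and 3966 in control cells, and HSD17B7 is the lowest, at 99.4.

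Summed over the 28 genes, the list took 3883, 3883 and 4001 CPM in the control libraries and 3134, 3152 and 3399 in the RSL3-treated libraries. The sum of the mevalonate genes was 503 ± 11.3 CPM in control and 361 ± 22 in RSL3-treated cells (SD, n = 3), a difference of -28.3%. The difference was -18.5% for the squalene genes (GGPS1 included), -19.7% for the post-lanosterol genes and -16.3% for the regulators. For the carriers and storage genes it was 347 ± 8.5 and 339 ± 8.63 CPM (SD, n = 3), and these libraries overlapped. These sums are descriptions and were not tested. In each step RSL3 replicate 3 was the highest of the RSL3-treated libraries. It was also nearest to the control mean in 17 of the 22 called genes, and in 54.4% of all 4123 called genes. Without it the median log2 fold change of the 28 genes was -0.25.

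Reads were counted without regard to strand, so overlapping genes limit some values. Of the 28 genes, 14 shared no exon base with another gene of the count files in the GENCODE v44 annotation. Of these 8 were lower and 2 higher (71.4% called, against 25.6% of all genes). HMGCS1 shared the most, 37.7% of its exon bases, with an antisense gene (ENSG00000261604) at 4.66 ± 1.77 normalized counts in control and 6.35 ± 1.98 in RSL3-treated cells (SD, n = 3). FDPS shared 18.6% with RUSC1-AS1, ACAT2 17.2% with TCP1, IDI1 15% with IDI2-AS1 and TMEM97 12.3% with IFT20, all on the opposite strand. TCP1, the partner with the highest counts, had a log2 fold change of -0.03 (edgeR adjusted p = 0.577). RUSC1-AS1 had -0.50 (edgeR adjusted p = 0.0331), in the same direction as FDPS, and without strand their reads cannot be told apart in the shared bases. In the other genes at most 9.08% was shared.

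Genes around the pathway were read from 5 lists written by function, and the genes with the smallest p are named for each. Beside the counts of these lists, 12.7% of all genes tested were lower and 12.9% higher, 25.6% together. Of 13 fatty acid targets of SREBP-1, 12 were tested, 8 were lower and 2 higher (83.3% called), with a median log2 fold change of -0.24. SCD, the stearoyl-CoA desaturase, fell from 299426 ± 9154 to 181426 ± 10458 normalized counts (SD, n = 3; log2 fold change -0.72, edgeR adjusted p = 1.64e-12). ACSS2, which makes acetyl-CoA from acetate, and ELOVL5, a fatty acid elongase, were called lower at -0.41 and -0.31. The 2 genes called higher were ELOVL6 and MID1IP1, at 0.17 and 0.11, named after their values were seen.

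The genes that process SREBPs or degrade sterol-regulated proteins were called in both directions, with log2 fold changes from -0.14 to 0.23. Of these 11 genes, 2 were lower and 4 higher (54.5% called, against 25.6% of all genes), with a median log2 fold change of 0.06. SPRING1, which helps SREBP processing, had 7787 ± 71 normalized counts in control and 9152 ± 380 in RSL3-treated cells (SD, n = 3; log2 fold change 0.23, edgeR adjusted p = 1.51e-05). FAF2 rose and ERLIN2 fell (0.15 and -0.12), both factors of protein degradation at the endoplasmic reticulum. Both proteases that cut SREBPs, MBTPS1 and MBTPS2, named outside the rule and after their values were seen, were not called, at -0.04 and 0.01. Of 15 genes that use isoprenoids, 3 were lower and 4 higher (46.7% called), with a median of -0.01. Among them ICMT, which methylates prenylated proteins, and DHDDS, of dolichol synthesis, fell (-0.22 and -0.16).

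The lists on sterol removal and transport also held calls in both directions. Of 9 LXR receptors and targets, 8 were tested, 2 were lower and 2 higher, with a median log2 fold change of -0.0033. That is 50% of those tested called, against 25.6% of all genes. ABCA1, the cholesterol efflux pump, rose from 28507 ± 1291 to 34694 ± 1007 normalized counts (SD, n = 3; log2 fold change 0.28, edgeR adjusted p = 8.86e-07), and SMPDL3A fell (-0.41). APOE, a lipoprotein component, rose from 84.9 ± 6.16 to 322 ± 39.3 normalized counts (SD, n = 3; log2 fold change 1.91, edgeR adjusted p = 9.95e-10). Of 15 genes of intracellular sterol transport, 5 were lower and 1 higher (40% called), with a median of -0.04. LIPA, the lysosomal acid lipase that frees cholesterol from its esters, fell from 4110 ± 85 to 3133 ± 119 normalized counts (SD, n = 3; log2 fold change -0.39, edgeR adjusted p = 5.57e-08). OSBPL1A and NPC1, a sterol-binding protein and the lysosomal cholesterol exporter, had -0.17 and -0.11 and were called lower. NPC1 and ERLIN2 lost their calls with GC offsets and without RSL3 replicate 2 or control replicate 2, and NPC1 also without RSL3 replicate 1. The counts of the SREBP processing, isoprenoid and transport lists depended on the setting: leaving out RSL3 replicate 2 left 3, 4 and 2 called genes in place of 6, 7 and 6. Without RSL3 replicate 1 there were 3 in the isoprenoid and 3 in the transport list, without control replicate 2 there were 4 in the isoprenoid list, and without control replicate 3 there were 3 in the transport list.

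**Figure D4:**
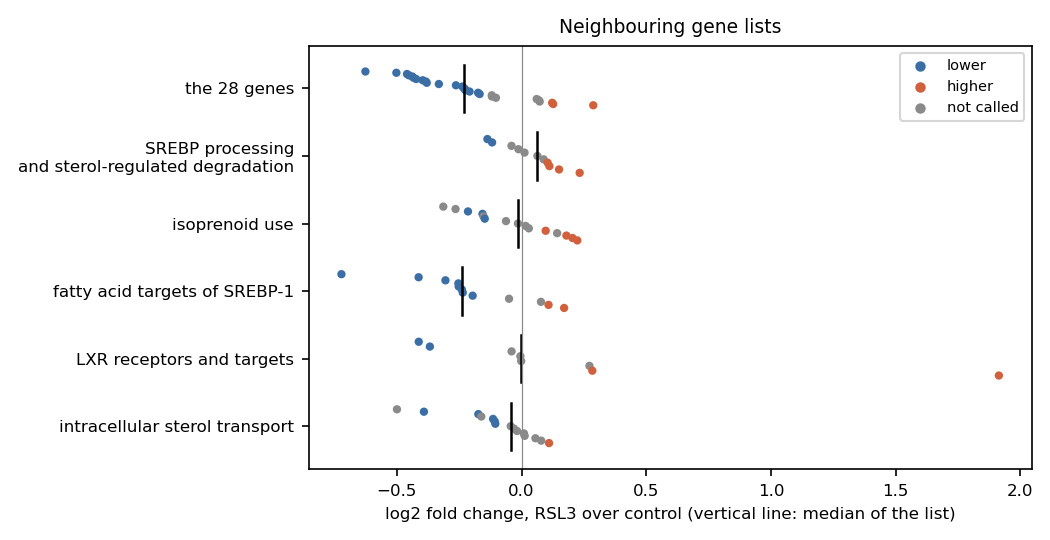
Log2 fold change (x axis) of each tested gene of the 28-gene list and of the 5 neighbouring lists (y axis), with calls in colour and each list's median as a vertical line. The medians of the 28 genes (-0.23) and of the fatty acid targets (-0.24) lie to the left of 0, and those of the other lists lie between -0.04 and 0.06.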

How the data were processed

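The libraries were paired-end and poly(A) selected. According to the methods and the submitters' processing notes, the authors trimmed reads with Trimmomatic 0.36 and Fastp, mapped them with HISAT2 to GRCh38.p4 and ran HTSeq-count 0.6.1p1 on exons, unstranded. The deposited values are raw counts per Ensembl gene, 1 file per library; the annotation release is not given in the sources used here. Tests ran in edgeR 4.0.16 under R 4.3.3 (filterByExpr with a minimum count of 10, TMM, quasi-likelihood F test, Benjamini-Hochberg over all genes, no covariates). Lengths, coordinates and overlaps come from GENCODE v44 on GRCh38. Group values are mean ± SD of normalized counts. Alternatives used DESeq2 1.42.0 and sva 3.50.0, and the edgeR script was tested on simulated data. All 28 genes are named, as are the 3 of smallest p per neighbouring list, except 1 that is not reported here. Members, lists and tests were chosen with earlier results of these data known. Same-numbered replicates deviated together only weakly (r between 0.0222 and 0.0745 over genes), and the main test did not pair them. Differently numbered pairs had r between -0.0514 and 0.0242. For each control library the same-numbered RSL3-treated library had the highest r.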

Additional observations from a re-analysis of the deposited data

How the results depend on the processing

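Across 16 alternatives (other scaling, filters, DESeq2, surrogate variables, the replicate block, GC content offsets and leaving out each library), 25 of the 28 genes kept their call and direction in all. The number lower ranged from 18 to 19 and the number higher from 2 to 3. ACAT2 also lost its call in DESeq2 with 1 surrogate variable (adjusted p = 0.0822) and with replicate block and GC offsets (0.055), and GGPS1 in DESeq2 with 1 surrogate variable (0.0649). TM7SF2, not called, ranged from -0.015 (without RSL3 replicate 3) to 0.14 in log2 fold change when 1 library was left out. With the replicate number as a block, 19 genes were lower and 3 higher, and the block alone changed no call among the 28. At an adjusted p under 0.01, 18 were lower and 2 higher, against 1343 and 1348 of all genes, while the SREBP processing, isoprenoid and transport lists had 2, 3 and 2 called genes. The isoprenoid list had 3 in DESeq2 with 1 surrogate variable, and the transport list had 2 with GC offsets. With 1 library left out, these 3 lists had 3 to 5, 3 to 6 and 2 to 5 called genes. The causes were not tested. Among the uncalled enzymes, the intervals of CYP51A1, HSD17B7 and SC5D reach down to -0.24, -0.28 and -0.25. They pass the fall of NSDHL (-0.21) but not that of DHCR7 (-0.33). The intervals of TM7SF2 and LBR reach down to -0.12 and -0.07. The parts of depth and of spread between libraries in these intervals were not tested.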
